A study of Homo sapiens with 15 samples.

Results

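The genes examined here code for enzymes and subunits that write, read or erase marks on histones and DNA, together with subunits of the SWI/SNF remodeller. Of the 40 genes listed, 38 were measured among 19735 genes in all. The remaining 2, BMI1 and CBX8, had no probe set with a single gene symbol in the annotation used and were not analysed here. A gene was represented by the probe set, of those annotated to it alone, with the highest mean over the 15 arrays. The 38 genes fall into 9 enzyme classes. RNA of 9 human lymphoid cell lines had been hybridised to Affymetrix U133 Plus 2.0 arrays, which report a log2 signal per probe set. Of the 6 lines labelled classical Hodgkin lymphoma, L428, L1236, KM-H2 and HDLM2 had 2 arrays each, while L540 and L540Cy had 1 each. The non-Hodgkin lines were Namalwa (Burkitt lymphoma, 2 arrays), SU-DHL-4 (a non-Hodgkin lymphoma of B cells, 1 array) and Reh (B cell acute lymphoblastic leukaemia, 2 arrays). No treatment is named. From background and not from the labels, L428, L1236 and KM-H2 derive from B cells and HDLM2 and L540 from T cells, and L540Cy is a subline of L540. L540 and L540Cy were therefore averaged into 1 line of origin, which leaves 5 Hodgkin against 3 non-Hodgkin lines. Each line is the culture of 1 tumour, and no normal B or T cells are included.

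Methyl groups on cytosines are copied after replication by DNMT1 with its cofactor UHRF1, placed anew by DNMT3A and DNMT3B, and oxidised by the TET enzymes as a step toward removal. Polycomb repressive complex 2 methylates lysine 27 of histone H3, and complex 1 ubiquitinates histone H2A. Other methyltransferases and demethylases act on further lysines, acetyltransferases and deacetylases set histone acetylation, and SWI/SNF moves nucleosomes with an ATPase that is either SMARCA2 or SMARCA4. Classical Hodgkin tumour cells are known for the loss of much of the B cell expression programme.

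The SD between duplicate arrays, over all genes, was 0.170 to 0.256 log2 in the 4 duplicated Hodgkin lines, 0.371 log2 in Namalwa and 0.442 log2 in Reh. Reh replicate 1 stood apart: over 22 genes that SU-DHL-4 expressed more than 3 log2 above every array other than Reh replicate 1, it was above Reh replicate 2 by 3.995 log2 at the median, so results that involve Reh are also given without it where they change. Array medians were 5.50 to 5.56. Of 6 measured B cell markers 3 were lower in the Hodgkin lines and 0 higher, with a mean level of the list of 5.64 to 6.43 in Hodgkin lines, against 10.16 to 11.32 in non-Hodgkin lines. CD79A, a B cell receptor chain, had line means of 5.81 to 6.12 in the Hodgkin lines, against 11.97 to 12.72 in the non-Hodgkin lines. Of 5 Hodgkin and Reed-Sternberg markers 2 were higher and 0 lower, with mean levels of 10.03 to 12.37 in Hodgkin lines, against 5.93 to 6.35 in non-Hodgkin lines. One of these, TNFRSF8, which codes for CD30, was higher by 4.92 log2 (limma, adjusted p = 0.0198). L1236 went against both lists in single genes: its PAX5 was 10.81, within the 10.78 to 11.81 of the non-Hodgkin lines, and its TRAF1 was 5.27, below their 5.41 to 7.09. Of 6 measured T cell markers 0 were higher and 1 was lower (LCK, -4.79 log2, limma adjusted p = 0.0223), and mean levels were 5.22 to 6.17 in Hodgkin lines, against 5.98 to 6.55 in non-Hodgkin lines. Within that list CD2 was 10.75 in HDLM2 and at most 5.80 in the other lines, CD3D was 8.60 in KM-H2 and at most 6.49 elsewhere, and CD3E was 5.04 to 5.55 in all 5 Hodgkin lines, the T cell derived ones included. Of 4 NK and cytotoxic markers 0 passed, with mean levels of 4.99 to 8.83 in Hodgkin lines, against 5.13 to 5.34 in non-Hodgkin lines. The T cell derived lines held the high values, with GZMB at 12.01 and NKG7 at 11.69 in L540 and PRF1 at 12.39 in HDLM2. The part of these markers in the results on L540, HDLM2 and KM-H2 was not tested. Of 15 genes of cycling cells, 0 passed the test, with a median difference of -0.27 log2 (Hodgkin minus non-Hodgkin).

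The first comparison asked which chromatin genes separate Hodgkin from non-Hodgkin lines. TET1, an enzyme that oxidises methylated cytosine, was lower in the Hodgkin lines, and no other member passed the test in either direction. Over all genes, 1.36% passed (limma on line means, adjusted over 19735 genes), with 0.760% higher and 0.598% lower. Among the 38 members, 0 were higher and 1 was lower, or 2.63% of them. The differences of 26 of the 38 members (68.4%) were below 0, against 53.9% of all genes, and the medians were -0.31 log2 for members and -0.02 log2 for all genes. All 5 Hodgkin lines lay below all 3 non-Hodgkin lines for 6 members (DNMT1, UHRF1, TET1, HDAC5, EP300 and SMARCA4), which is 15.8% of the members, against 5.48% of all genes. The reverse held for 0 members, against 5.18% of all genes.

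**Figure D1:**
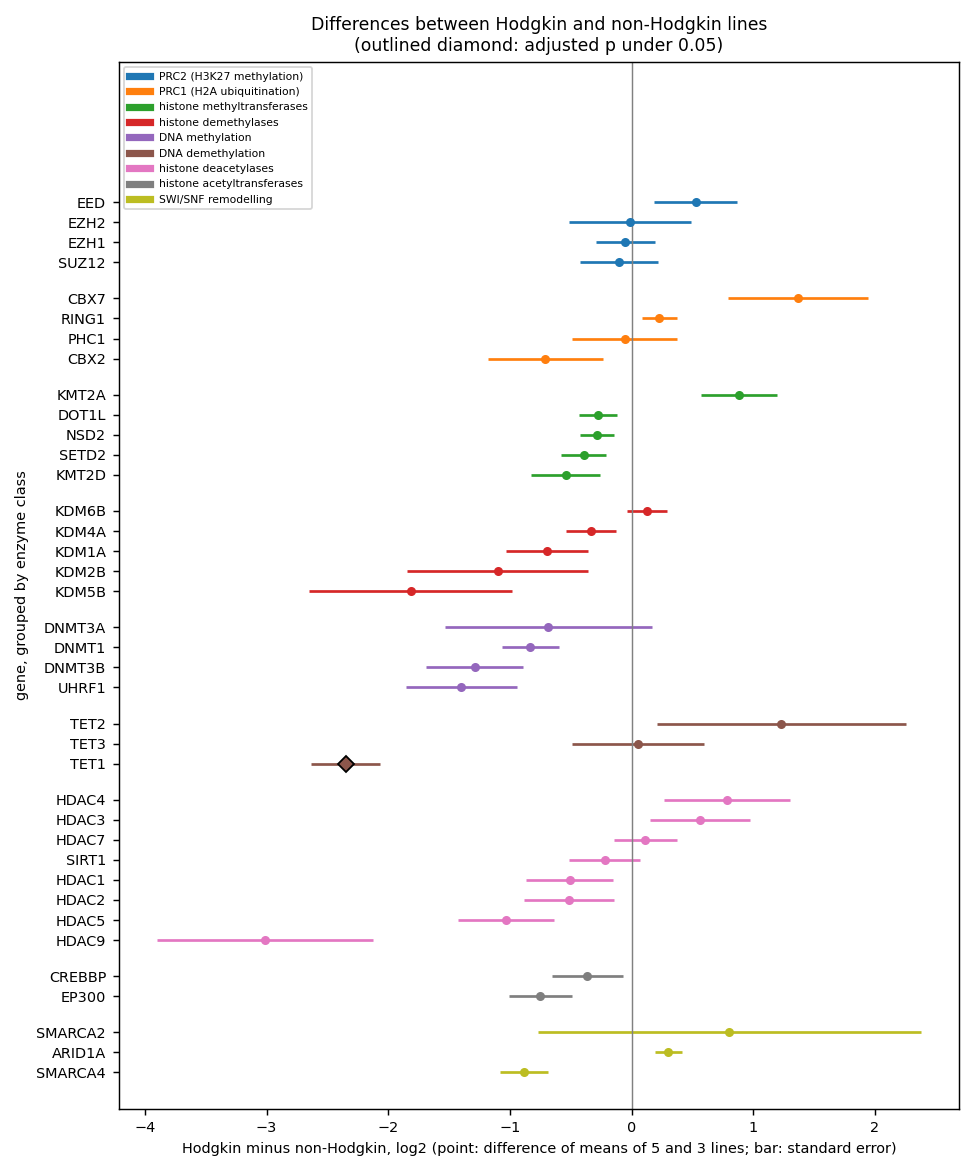
Difference of Hodgkin minus non-Hodgkin line means (5 and 3 lines, log2, horizontal axis) for each of the 38 members, grouped and coloured by enzyme class, with standard errors as bars. TET1, drawn as an outlined diamond at -2.35, is the member past the threshold. HDAC9 lies further left, at -3.01, with a standard error of 0.89.

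An F test among the 5 Hodgkin lines passed for 27 of the 38 members (71.1%), against 45.3% of all genes. Members were on the whole bright: among genes with a mean above 6 log2, 67.7% passed, against 26 of 36 members (72.2%). The 11 members that did not pass were EZH1, RING1, SETD2, NSD2, DOT1L, KDM6B, TET1, HDAC7, EP300, ARID1A and SMARCA4. The spread in this fit comes from duplicate arrays (6 residual degrees of freedom), so it asks whether lines differ beyond their duplicates and its counts cannot be set against those of the class test, which rests on the spread between lines. L540, L540Cy and SU-DHL-4 had 1 array each, and their spread was taken to equal that of the duplicated lines. L540 and L540Cy had separate means in the fit, so the difference between them does not enter its spread.

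**Figure D2:**
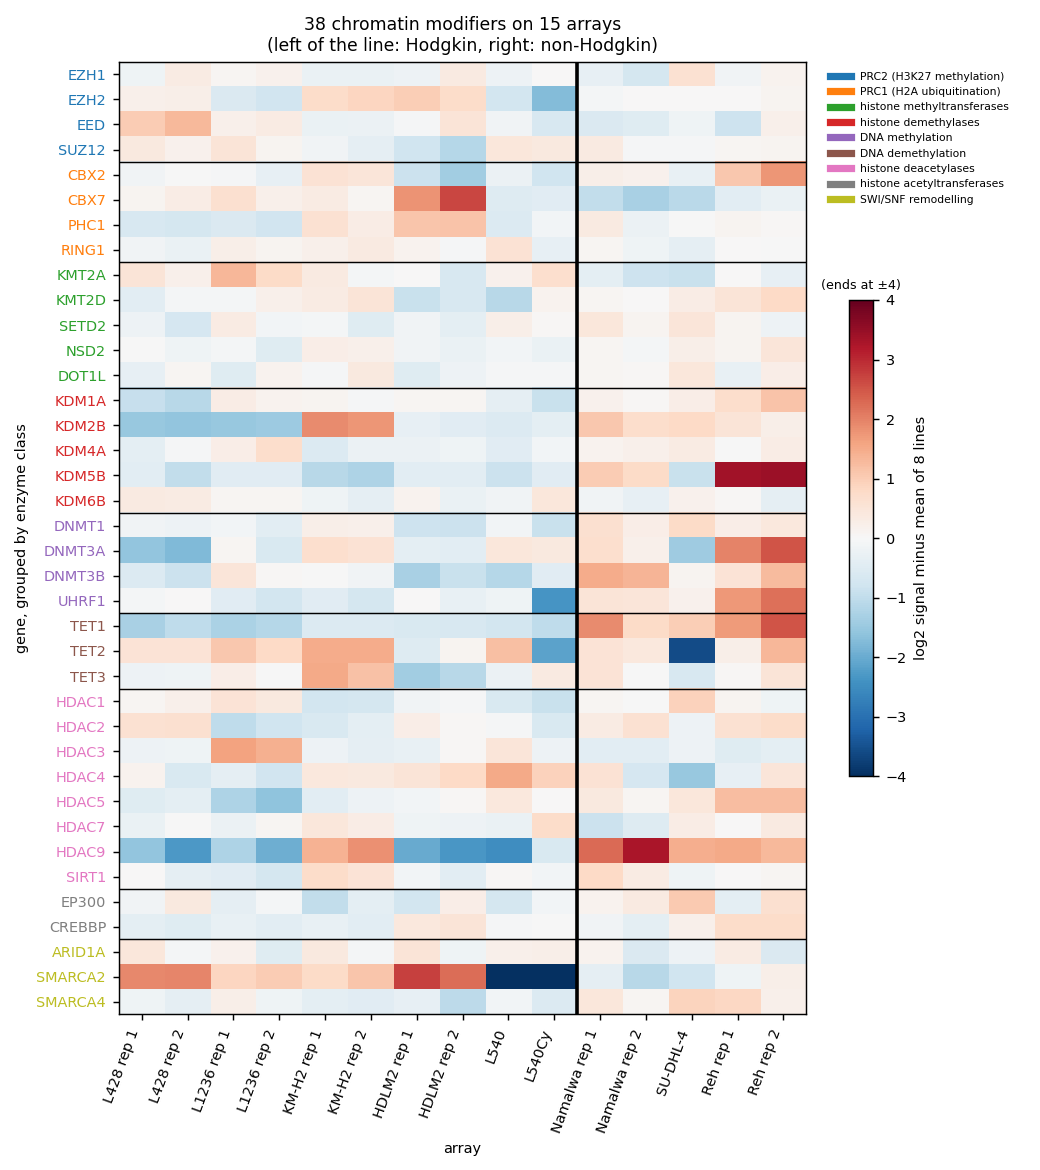
Log2 signal of the 38 members on all 15 arrays, as the deviation from each gene's mean over the 8 lines of origin (colour scale, which ends at 4 log2 in either direction), with genes grouped by enzyme class and Hodgkin arrays left of non-Hodgkin arrays. Single dark cells mark line-specific levels, such as SMARCA2 at 5.14 in L540 and 4.51 in L540Cy, and KDM5B at 8.98 and 9.02 in Reh.

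The annotated promoters are shown for TET1, the member called between the classes, and for SMARCA2, TET2 and HDAC9, the 3 members with the widest ranges over the 8 lines (RefSeq, GRCh38.p14, plus strand, 250 bases before to 50 after the most upstream annotated start). Capitals mark CG dinucleotides, the sites that DNA methyltransferases and TET enzymes act on. The letters CG read the same on both strands and do not overlap one another. Of the 38 members, 35 were found in the promoter table. TET1 lies at chr10:68560087-68560386, SMARCA2 at chr9:2015097-2015396, TET2 at chr4:105145625-105145924 and HDAC9 at chr7:18086575-18086874.
TET1: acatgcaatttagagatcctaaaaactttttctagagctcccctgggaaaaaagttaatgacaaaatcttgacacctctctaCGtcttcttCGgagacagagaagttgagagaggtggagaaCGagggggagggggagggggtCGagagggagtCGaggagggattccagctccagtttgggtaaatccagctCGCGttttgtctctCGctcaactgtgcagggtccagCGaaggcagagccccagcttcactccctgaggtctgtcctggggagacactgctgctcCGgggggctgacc
SMARCA2: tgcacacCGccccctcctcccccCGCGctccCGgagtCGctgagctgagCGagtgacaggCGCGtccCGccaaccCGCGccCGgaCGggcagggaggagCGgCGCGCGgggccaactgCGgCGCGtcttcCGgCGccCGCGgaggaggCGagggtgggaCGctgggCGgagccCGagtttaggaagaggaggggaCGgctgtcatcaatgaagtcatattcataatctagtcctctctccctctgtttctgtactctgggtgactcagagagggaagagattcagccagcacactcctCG
TET2: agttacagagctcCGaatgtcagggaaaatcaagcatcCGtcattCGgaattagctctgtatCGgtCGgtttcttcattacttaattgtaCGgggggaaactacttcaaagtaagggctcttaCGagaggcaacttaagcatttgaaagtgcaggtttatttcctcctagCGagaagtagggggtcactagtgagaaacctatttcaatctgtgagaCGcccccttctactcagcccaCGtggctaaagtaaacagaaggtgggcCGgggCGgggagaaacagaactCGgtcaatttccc
HDAC9: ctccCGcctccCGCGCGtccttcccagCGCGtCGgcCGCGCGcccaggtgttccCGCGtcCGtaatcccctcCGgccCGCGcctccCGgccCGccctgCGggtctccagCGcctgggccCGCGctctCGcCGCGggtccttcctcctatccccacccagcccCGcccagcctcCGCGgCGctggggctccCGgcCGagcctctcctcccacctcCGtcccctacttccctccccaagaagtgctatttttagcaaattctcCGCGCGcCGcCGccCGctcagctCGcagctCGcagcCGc
The TET1 window holds 10 CG, and 55.9% of 27305 promoters of that length hold at least as many. The TET2 window holds 13, a count reached by 51.4%, and 13 is also the median. SMARCA2 has 30 CG, reached by 22%, and HDAC9 has 41, reached by 6.54%. All 4 genes have more than 1 annotated start, and the counts describe these windows only: methylation was not measured.

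Among the DNA demethylation genes, TET1 had log2 signals of 3.85 to 4.59 (median 4.25) on the 10 Hodgkin arrays. On the non-Hodgkin arrays it had 7.03 and 5.91 in Namalwa, 6.11 in SU-DHL-4 and 6.84 and 7.65 in Reh. No Hodgkin array reached the lowest non-Hodgkin array. In RNA of whole cultures, fewer expressing cells and less RNA per cell cannot be told apart. Means were 4.26 ± 0.30 in Hodgkin lines (SD, n = 5) and 6.61 ± 0.58 in non-Hodgkin lines (SD, n = 3), a difference of -2.35 ± 0.28 log2 (SE; limma, adjusted p = 0.0122). TET1 fell by 2.44 ± 0.33 log2 in the 3 B cell derived Hodgkin lines relative to the same non-Hodgkin lines (limma, adjusted p = 0.0339), where 0.917% of genes passed (0.345% lower and 0.573% higher), and it was again the single member called. That call ended without Reh replicate 1 (adjusted p = 0.0686), without L428 (0.0973), L1236 (0.102) or Namalwa (0.103), without HDLM2 or L540, which share the estimate of spread (0.0658 each), and with the mean of both TET1 probe sets (-1.71 log2, adjusted p = 0.0764). The 5 Hodgkin lines did not pass the test of differing in TET1 among themselves (F = 1.50, adjusted p = 0.436). The Hodgkin values lie below the array medians, where RMA can compress differences, which was not tested here. The dimmer TET1 probe set differed by -0.95 log2, with SU-DHL-4 at 3.82 close to the Hodgkin lines (3.55 to 3.78) and Namalwa and Reh above them at 4.85 and 5.21.

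TET2, a second enzyme of the family, was high in most lines and near the floor in 1. It had 3.95 on the SU-DHL-4 array, against line means of 7.06 to 9.01 in the other 7 lines. This difference was -4.09 ± 0.33 log2 (limma, adjusted p = 3.26e-05), with no second SU-DHL-4 array to check it. Among Hodgkin arrays L540Cy stood lowest at 5.38, while its parent L540 had 8.73 and both KM-H2 arrays had 9.01 to 9.02. TET3, the third member of the family, was highest in KM-H2 (10.60 and 10.25) and lowest in HDLM2 (7.68 and 7.95), with KM-H2 above the mean of the other lines by 1.54 ± 0.18 log2 (limma, adjusted p = 0.000162). The Hodgkin to non-Hodgkin differences were 1.23 ± 1.02 log2 for TET2 and 0.05 ± 0.54 log2 for TET3, both within their errors.

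**Figure D3:**
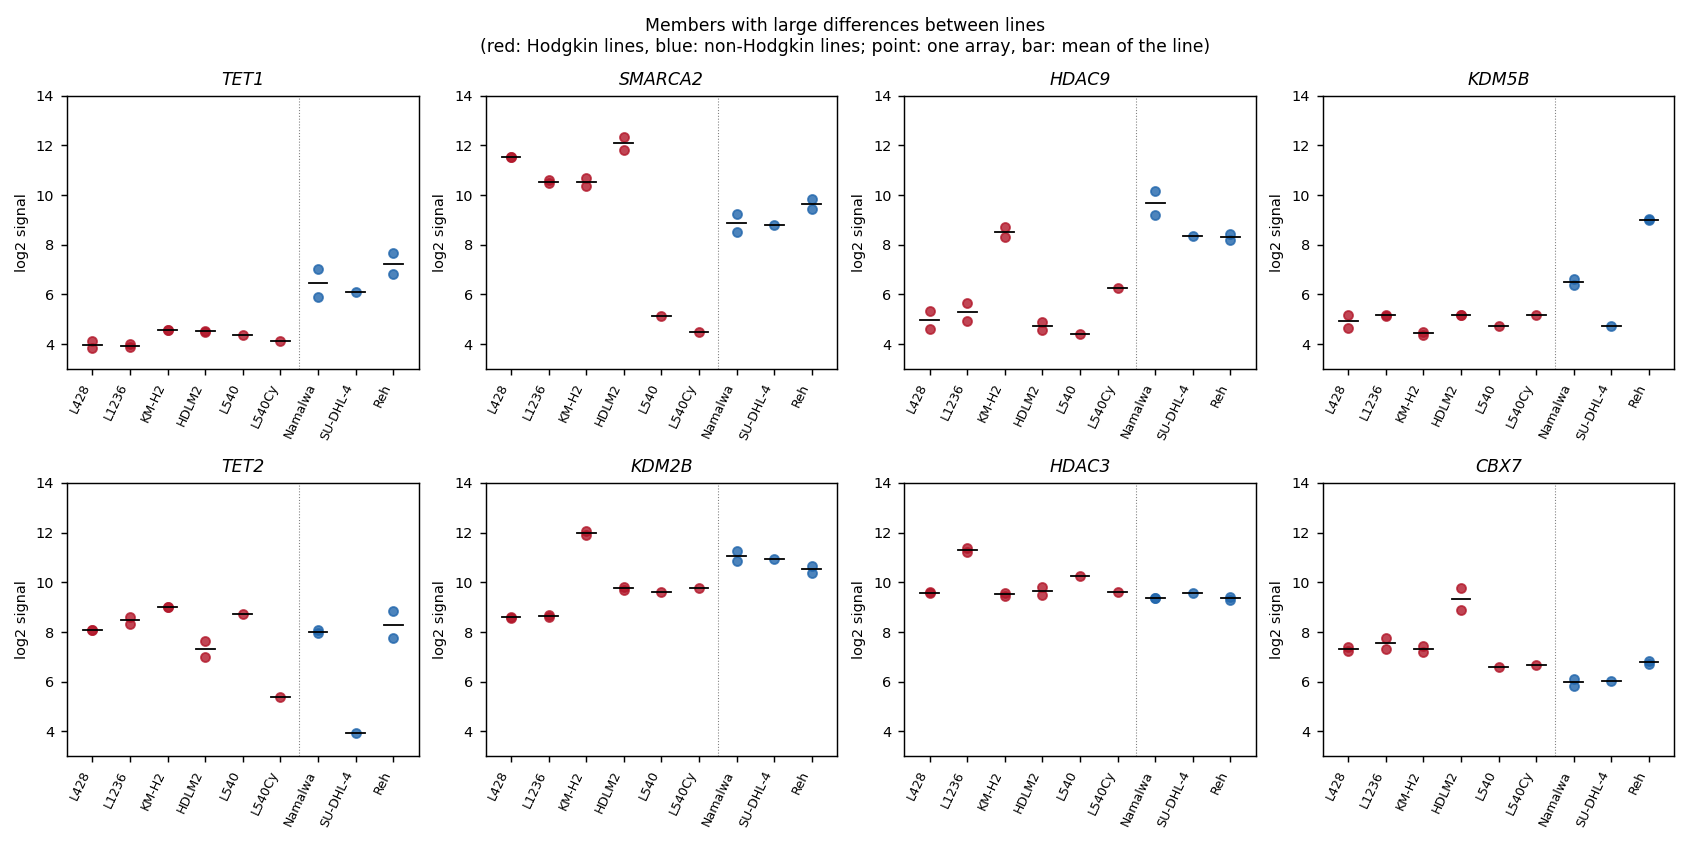
Log2 signal (vertical axis) of 8 members by cell line, with 1 point per array and a bar at each line's mean, Hodgkin lines in red on the left and non-Hodgkin lines in blue on the right. TET1 separates the classes, while SMARCA2 is lowest in L540 and L540Cy, TET2 in SU-DHL-4, KDM5B is highest in Reh, KDM2B in KM-H2, HDAC3 in L1236 and CBX7 in HDLM2, and HDAC9 is low in all Hodgkin lines except KM-H2.

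The 4 DNA methylation genes all had lower means in the Hodgkin lines, with a class median of -1.06 log2, and 0 of the 4 passed the test. UHRF1, which guides DNMT1 to newly replicated DNA, had 9.11 to 11.48 (median 11.09) on Hodgkin arrays, against 11.95 or more in Namalwa, 11.63 in SU-DHL-4 and 13.20 and 13.68 in Reh. The arrays did not overlap, and the difference was -1.40 ± 0.45 log2 (limma, adjusted p = 0.230). DNMT1, the maintenance methyltransferase, had 10.75 to 11.88 (median 11.47) on Hodgkin arrays, against 12.30 and 11.92 in Namalwa, 12.41 in SU-DHL-4 and 11.91 and 12.06 in Reh, again with no overlap (-0.83 ± 0.24 log2, adjusted p = 0.171). DNMT3B, a de novo methyltransferase, averaged 6.71 ± 0.56 in Hodgkin lines and 8.01 ± 0.65 in non-Hodgkin lines (SD, n = 5 and 3; adjusted p = 0.205 with limma). L1236 overlapped SU-DHL-4 in this gene. DNMT3A, the other de novo enzyme, followed single lines more than the class (-0.69 ± 0.85 log2, adjusted p = 0.755). It was high in Reh at 9.18 and 9.72, by 2.58 ± 0.20 log2 over the other lines (limma, adjusted p = 1.09e-05). It was low in L428 (5.60 and 5.43) and in SU-DHL-4 (5.78). Without Reh, DNMT3A no longer lay below 0 in the Hodgkin lines. All 4 genes passed the F test among the Hodgkin lines. Genes of cycling cells shared the sign of this class (median -0.27 log2, 0 of 15 called). They ran from -1.45 log2 (MCM4) to 0.21 log2 (RRM2), and in 3 of the 15 all Hodgkin lines lay below all non-Hodgkin lines. The part of cycling in the values of the DNA methylation genes was not tested.

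Polycomb complex 2 did not separate the classes but differed among the Hodgkin lines. EZH2, its main catalytic subunit in dividing cells, had 11.33 and 11.35 in L428, 10.52 and 10.36 in L1236, 11.84 and 11.97 in KM-H2, 12.11 and 11.84 in HDLM2, 10.38 in L540 and 9.37 in L540Cy. All 5 non-Hodgkin arrays lay between 11.03 and 11.21. The Hodgkin lines thus spread to both sides of a narrow non-Hodgkin range (F = 76.9, adjusted p = 5.77e-06 with limma), with a class difference of -0.01 ± 0.50 log2. SUZ12, which stabilises the complex, was lowest in HDLM2, the line with the highest EZH2, at 10.85 and 10.52, against 11.40 to 12.07 in the means of the other lines. Over the 8 lines EZH2 and SUZ12 had Pearson's r = -0.78 (n = 8 lines, a description). EED, the subunit that binds methylated lysine 27, was highest in L428 (12.01 and 12.30), by 1.31 ± 0.23 log2 over the other lines (limma, adjusted p = 0.00227). EZH1, the alternative catalytic subunit, had an F of 1.06 (adjusted p = 0.609) and Hodgkin line means of 7.94 to 8.35.

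**Figure D4:**
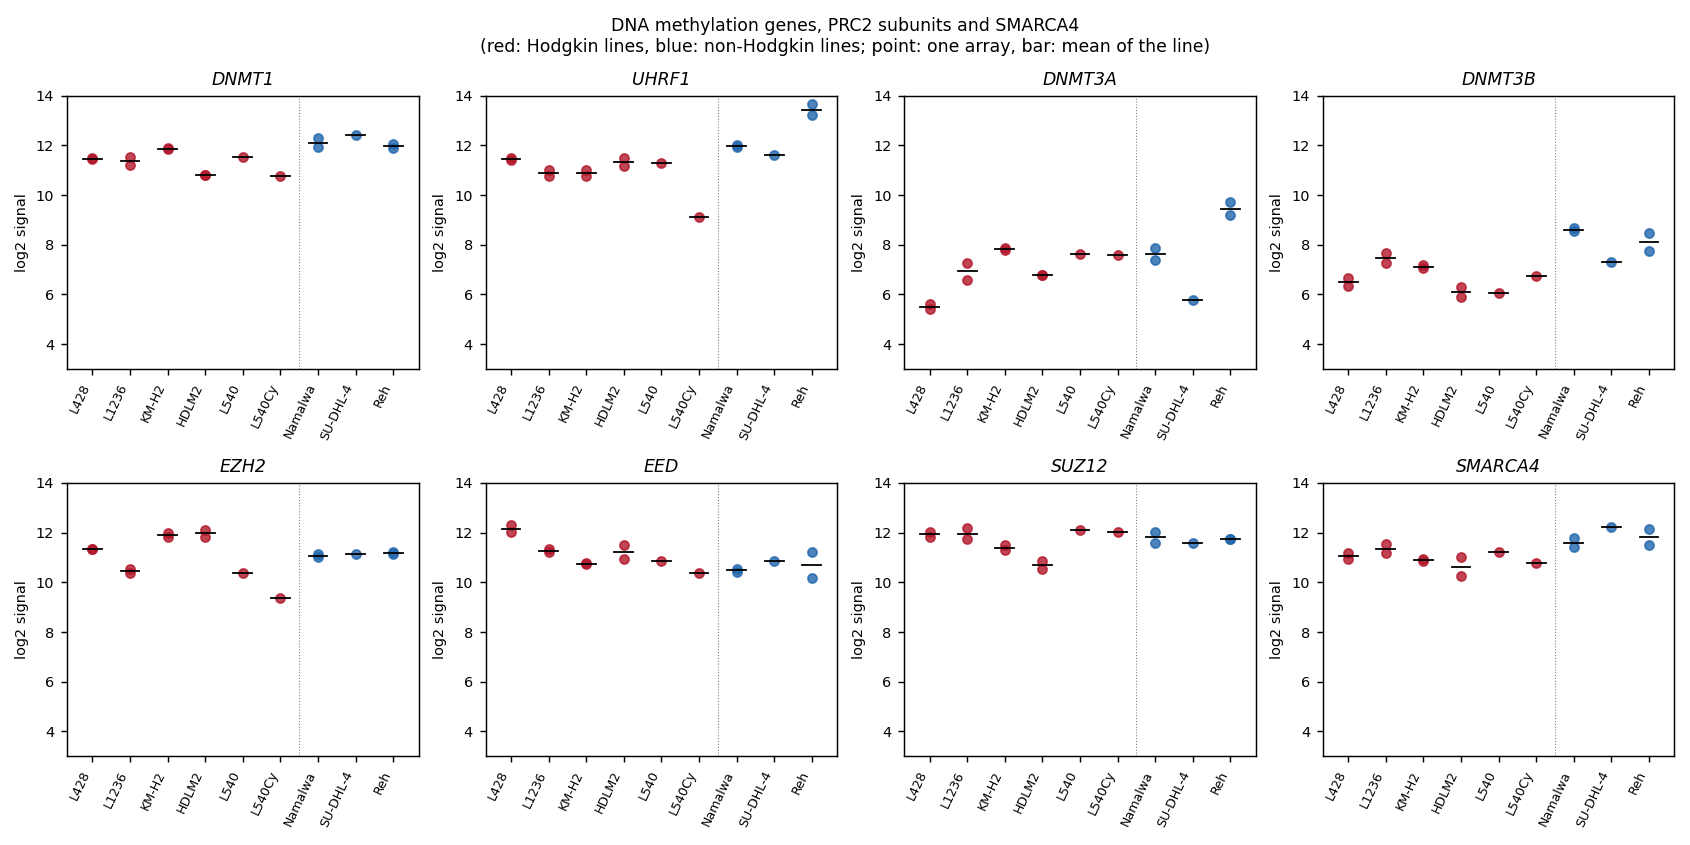
Log2 signal (vertical axis) by cell line for the 4 DNA methylation genes, 3 subunits of Polycomb complex 2 and SMARCA4, with 1 point per array, a bar at each line's mean, Hodgkin lines in red on the left and non-Hodgkin lines in blue on the right. DNMT1, UHRF1 and SMARCA4 are lower in all Hodgkin lines without passing the test, and EZH2 spreads on both sides of the non-Hodgkin values.

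Polycomb complex 1 varied by line. CBX7, a subunit that binds methylated lysine 27, had 8.90 and 9.78 in HDLM2, against 5.98 to 7.54 in the means of the other lines (2.54 ± 0.21 log2, limma adjusted p = 1.42e-05). Its class difference of 1.37 ± 0.57 log2 did not pass (adjusted p = 0.341). CBX2, an alternative to CBX7 in the complex, was highest in Reh (9.56 and 10.24) and lowest in HDLM2 (7.63 and 7.11). PHC1, a polyhomeotic subunit, had 9.70 and 9.74 in HDLM2 and 9.18 and 8.88 in KM-H2, while L428 and L1236 both had means of 7.91. RING1, an E3 ligase of the complex, was even across lines, at 9.50 to 10.15, and passed no test.

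The histone methyltransferases had the lowest median SD over the 8 lines of the 9 classes (0.31 log2). KMT2A, which methylates lysine 4 of histone H3, was highest in L1236 (10.45 and 9.89), by 1.19 ± 0.22 log2 over the other lines (limma, adjusted p = 0.00316). Its class difference was 0.88 ± 0.31 log2 (adjusted p = 0.261), and 10 of its 11 probe sets pointed the same way. KMT2D, an enhancer methyltransferase, had 9.41 in L540Cy and 8.15 in L540, the largest difference of the class in that pair. SETD2, which methylates lysine 36, NSD2, which dimethylates the same lysine, and DOT1L, the lysine 79 enzyme, differed between the classes by -0.39, -0.28 and -0.27 log2, and none passed the test (limma, adjusted p = 0.396, 0.423 and 0.482).

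Among the demethylases, KDM5B, which removes lysine 4 methylation, was a feature of Reh. Reh had 8.98 and 9.02, Namalwa 6.64 and 6.39 and SU-DHL-4 4.73, while the 10 Hodgkin arrays lay at 4.39 to 5.19 (median 5.16). Reh exceeded the mean of the other lines by 3.87 ± 0.14 log2 (limma, adjusted p = 1.02e-07), and 3 of 5 probe sets showed it. The class difference of -1.82 ± 0.83 log2 did not pass (adjusted p = 0.385). KDM2B, a lysine 36 demethylase that binds unmethylated CG, was highest in KM-H2 at 12.05 and 11.90. It was lowest in L428 (8.62 and 8.57) and L1236 (8.62 and 8.70), below all 3 non-Hodgkin lines at 10.53 to 11.05. KM-H2 lay 2.09 ± 0.13 log2 over the mean of the other lines (limma, adjusted p = 1.85e-06). KDM1A, which acts on lysine 4, was highest in Reh (10.65 and 11.07) and lowest in L428 (9.01 and 8.83). KDM4A, a lysine 9 and 36 demethylase, was highest in L1236 (7.94 and 8.40). KDM6B, a lysine 27 demethylase, differed by 0.13 ± 0.16 log2 between the classes.

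HDAC9, a deacetylase known as a corepressor of MEF2 factors, had the largest class difference in size of all members, and did not pass. It had 5.33 and 4.60 in L428, 5.66 and 4.94 in L1236, 4.88 and 4.56 in HDLM2, 4.43 in L540, 6.28 in L540Cy and 8.30 and 8.72 in KM-H2. The non-Hodgkin arrays had 9.18 and 10.18 in Namalwa, 8.36 in SU-DHL-4 and 8.43 and 8.20 in Reh. KM-H2 thus lay within the non-Hodgkin values, and the other Hodgkin arrays all lay below them. The difference was -3.01 ± 0.89 log2 (limma, adjusted p = 0.189). Without KM-H2 it was -3.70 log2 (adjusted p = 0.00953), a value that follows from leaving out the line that overlapped. Only 1 of the 5 HDAC9 probe sets showed a difference of this size, and the other 4 ran from -0.67 to -0.04 log2.

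HDAC3, the catalytic subunit of the NCoR corepressor complex, was high in L1236 at 11.40 and 11.21, against 9.36 to 9.93 in the means of the other lines (1.74 ± 0.12 log2, limma adjusted p = 4.83e-06). HDAC1, a class I deacetylase of several corepressor complexes, was highest in SU-DHL-4 (12.91) and low in L540 (11.37), L540Cy (11.10) and KM-H2 (11.25 and 11.27). HDAC4, a class IIa deacetylase, ran opposite to it: it was highest in L540 (8.67) and L540Cy (8.08) and lowest in SU-DHL-4 (5.63). The pair had r = -0.92 over the 8 lines, and -0.74 without L540 and SU-DHL-4. HDAC2, a close relative of HDAC1, was low in L1236 at 10.11 and 10.34. HDAC5, of class IIa, averaged 7.12 ± 0.62 in Hodgkin lines and 8.15 ± 0.52 in non-Hodgkin lines (SD, n = 5 and 3), with adjusted p = 0.299 from limma. Its second probe set differed by 0.02 log2. HDAC7, also of class IIa, and SIRT1, a NAD-dependent deacetylase, had class differences of 0.11 ± 0.26 and -0.22 ± 0.29 log2.

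The acetyltransferase EP300 had 7.50 to 8.88 (median 8.24) on Hodgkin arrays, against 8.63 and 8.83 in Namalwa, 9.52 in SU-DHL-4 and 8.10 and 9.13 in Reh. Line means did not overlap but single arrays did, and the difference was -0.75 ± 0.26 log2 (limma, adjusted p = 0.253). CREBBP, its paralogue, was highest in Reh (10.52 and 10.51) and, among Hodgkin lines, in HDLM2 (10.20 and 10.30), and differed by -0.36 ± 0.29 log2 between the classes.

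The SWI/SNF ATPase SMARCA2 had the widest range of all members. It had 11.51 and 11.55 in L428, 10.47 and 10.61 in L1236, 10.36 and 10.70 in KM-H2 and 12.33 and 11.83 in HDLM2, but 5.14 in L540 and 4.51 in L540Cy. The non-Hodgkin arrays had 9.25 and 8.50 in Namalwa, 8.79 in SU-DHL-4 and 9.42 and 9.83 in Reh. L540 with its subline lay below every other array, and the other Hodgkin arrays lay above every non-Hodgkin array. L540 differed from the mean of the other lines by -5.46 ± 0.21 log2 (limma, adjusted p = 7.28e-08), and the F among Hodgkin lines was 235. The 4 bright probe sets agreed, with L540 at 3.93 to 4.82. HDLM2, the other T cell derived line, was the highest, so the T cell derived lines lay at both ends, and T minus B derived Hodgkin lines gave -2.41 log2 (limma, adjusted p = 0.865). In that contrast 0.198% of genes passed (0.147% higher and 0.0507% lower), and 0 of 38 members.

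SMARCA4, the alternative ATPase, had 10.26 to 11.55 (median 10.98) on Hodgkin arrays, against 11.77 and 11.41 in Namalwa, 12.21 in SU-DHL-4 and 12.14 and 11.52 in Reh. A single array of L1236 overlapped arrays of Namalwa and Reh, and line means did not. The difference was -0.89 ± 0.20 log2 (limma, adjusted p = 0.0921), all 9 probe sets were lower, and the Hodgkin lines did not pass the test of differing among themselves (F = 1.72, adjusted p = 0.366). L540 had SMARCA4 at 11.21 and L540Cy at 10.77, within the range of the other Hodgkin lines. ARID1A, a DNA-binding subunit, had the lowest F of all members among the Hodgkin lines (limma, F = 0.31, adjusted p = 0.950), with Hodgkin line means of 10.64 to 11.03.

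Set against the mean of the other 7 lines of origin, every line had members past the threshold. Reh had 14 of 38 members higher (36.8%, against 11.0% of all genes and 15.9% of those above 6 log2) and 1 lower (against 10.8%), HDAC3. Without Reh replicate 1, 13 were higher (against 11.6% of all genes), and HDAC3 was no longer called without either Reh array (adjusted p = 0.103 without replicate 1 and 0.0537 without replicate 2). The higher genes were KDM5B, DNMT3A, TET1, UHRF1, CBX2, HDAC9, HDAC5, KDM1A, DNMT3B, TET2, CREBBP, HDAC2, KMT2D and KDM2B, with differences of 3.87 down to 0.44 log2. L540 had 1 higher (HDAC4, 1.41 log2, against 11.8% of all genes) and 13 lower (against 13.8% of all genes and 21.1% of those above 6 log2). Among the lower were SMARCA2, UHRF1 (-1.45 log2) and EZH2 (-1.42 log2). Of these 13, UHRF1, EZH2, HDAC9 and KMT2D differed by more than 1 log2 between L540 and L540Cy, so their calls rest on a mean of unlike arrays. L540Cy held the lower value in UHRF1 and EZH2, and L540 in HDAC9 and KMT2D. In the remaining lines the brackets give the share of all genes called in that direction. KM-H2 had 11 higher (15.2%) and 5 lower (12.9%). L428 had 3 higher (12%) and 10 lower (11.7%), L1236 had 6 higher (14.4%) and 11 lower (10.6%), and HDLM2 had 5 higher (14.0%) and 10 lower (13.0%). Namalwa had 9 higher (11.3%) and 6 lower (16.6%), and SU-DHL-4 had 5 higher (8.01%) and 7 lower (9.74%). Shares among genes above 6 log2, those of Reh and L540 included, came from a fit adjusted over those 11321 genes alone. The member shares came from the main fit, with all 38 members and adjustment over 19735 genes, so sets and thresholds differ. Among genes above 6 log2, the share called in either direction was 36.4% for L428, against 34.2% of the members. It was 37.6% against 44.7% for L1236, 41.0% against 42.1% for KM-H2 and 41.2% against 39.5% for HDLM2. For Namalwa it was 42.3% against 39.5%, and for SU-DHL-4 28.1% against 31.6%. Leaving out 1 array of the line itself, either 1 unless named, left 5 to 6 members lower in L428 (against 5.35% to 5.72% of all genes) and 3 higher in L1236 (8.31% to 9.11%), with 6 lower there without its replicate 2 (5.01%). It left 6 higher (9.35% to 9.98%) and 3 lower (6.61% to 7.01%) in KM-H2, and 2 lower in Namalwa without its replicate 2 (10%). Without Reh replicate 1, L428 had 5 higher (13.1%) and KM-H2 had 8 lower (14.7%). L540 had 2 higher without L1236 replicate 1 (10.7%) or Namalwa replicate 1 (13.2%). These contrasts share lines, since each line also enters the mean the others are set against.

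L540Cy and L540, with 1 array each and so no test, differed by more than 1 log2 in 6 members. L540Cy was lower in TET2 (by -3.35 log2), UHRF1 (-2.17 log2) and EZH2 (-1.003 log2), and higher in HDAC9 (1.85 log2), KMT2D (1.26 log2) and HDAC7 (1.01 log2). The median size of the difference was 0.51 log2 over members, against 0.21 log2 over all genes. Between Reh replicate 1 and Reh replicate 2, which are labelled as the same line, 3 members (EED, TET2 and EP300) differed by more than 1 log2. The median size was 0.32 log2 over members, against 0.25 log2 over all genes. For neither pair was the share of all genes over 1 log2 computed. The medians compare unlike sets, since 36 of 38 members but 11321 of 19735 genes had a mean above 6 log2.

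A wider list of 120 other chromatin genes, of which 113 were measured, gave 2 higher and 3 lower in Hodgkin lines (4.42% together, against 1.36% of all genes). In a fit of the genes above 6 log2 alone, 2.99% of them passed. BCL7A, a SWI/SNF subunit, had line means of 5.16 to 6.79 in Hodgkin lines and 8.84 to 9.52 in non-Hodgkin lines (-3.54 ± 0.44 log2, limma adjusted p = 0.0136). SETDB2, a SET domain protein, had 6.05 to 7.32 in Hodgkin lines and 8.90 to 9.96 in non-Hodgkin lines (-2.62 ± 0.34 log2, adjusted p = 0.0160). Both calls ended without Namalwa (adjusted p = 0.0621 for BCL7A and 0.0625 for SETDB2), and that of BCL7A also without SU-DHL-4 (0.0542). JMJD1C, a demethylase family member, was lower by -1.47 ± 0.23 log2 (adjusted p = 0.0310). NCOA1, a nuclear receptor coactivator with acetyltransferase activity, was higher by 1.73 ± 0.21 log2 (adjusted p = 0.0136), and PCGF5, a Polycomb complex 1 subunit, by 1.38 ± 0.23 log2 (adjusted p = 0.0429). The call of NCOA1 ended without Namalwa replicate 2 (0.0575). That of PCGF5 ended without Reh replicate 1 and without any 1 line other than KM-H2, and that of JMJD1C without any 1 line other than L428, with adjusted p up to 0.136 and 0.0729. The JMJD1C call also ended with averaged probe sets (adjusted p = 0.0835) and with the most variable probe set (0.228), and the PCGF5 call with averaged probe sets (0.122), quantile normalization (0.0532) and a trended, robust variance (0.0597). In none of these genes did a Hodgkin line mean overlap a non-Hodgkin one, but they were picked by a test on the same line means. Of the 113 genes, 7.08% had all Hodgkin lines above all non-Hodgkin lines (against 5.18% of all genes) and 7.96% below (against 5.48%).

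Over 73 pairs of genes within the enzyme classes, the median Pearson's r across the 8 lines was 0.05, with 4 pairs above 0.7 and 6 below -0.7. The highest was KMT2D with NSD2 (r = 0.83, and 0.75 without HDLM2 and Reh), and DOT1L had r = 0.645 with KMT2D and 0.732 with NSD2. All 6 pairs of DNA methylation genes were above 0 over the 8 lines, at 0.11 to 0.74. Without L428 and Reh, however, DNMT3A had r = -0.36 with UHRF1 and 0.12 with DNMT3B. The other pairs stayed at 0.51 to 0.83 without the lines farthest from the first gene's median. DNMT1 and DNMT3B had r = 0.74, and 0.83 without HDLM2 and SU-DHL-4. ARID1A and SMARCA4 had r = -0.86. The points share arrays and normalization, and 8 lines are few.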

How the data were processed

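Each value is a log2 signal of a probe set as deposited by the authors, who used RMA (background correction, normalization between arrays and probe summary), per the submitters' processing notes. The sources used here give neither software nor settings. Arrays have no counts or depth, and their number limits the precision. The table held 54675 probe sets. After removal of 62 controls, 41091 carried a single symbol in the platform annotation, 1801 carried several and 11721 carried none. By Entrez identifier 41037 matched RefSeq (GRCh38.p14), 0 were renamed, and 19735 genes resulted.

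Arrays of a line were averaged, and lmFit and eBayes of limma 3.58.1 (R 4.3.3) compared 5 Hodgkin with 3 non-Hodgkin lines. Tests were two-sided, and p-values were adjusted by Benjamini-Hochberg over the 19735 genes with 0.05 as the limit for a call. B cell derived Hodgkin lines were set against the non-Hodgkin lines, and T against B cell derived Hodgkin lines, likewise. Single lines were compared in a second limma fit, which took the 15 arrays with a mean for every line. The scripts were tested on simulated data. Differences are Hodgkin minus non-Hodgkin, or the named line minus the mean of the other lines. Per the series' design text duplicates are biological, so line contrasts measure the spread between cultures of a line.

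Members and lists were chosen with earlier results of these data known. Named genes were, by rule, members past the class test, the brightest and most different member of each class, the 3 highest and 3 lowest F values, and the largest rise and fall of each line. Other members and the wider list are given for completeness, and single values among them were chosen after their values were seen. Alternatives changed the treatment of L540Cy, the probe set, a filter on dim genes, scaling, variance model and block, and left out each line or array.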

Additional observations from a re-analysis of the deposited data

Results flagged for a closer look

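In 5 of the 38 members, 1 of the 5 Hodgkin line means lay far from the other 4, by a gap of 0.769 to 0.834 of the whole range (Dixon's critical value for 5 is 0.71). Chance marks about 1 in 20 groups in this way. The share over all genes was not computed, so the count does not set the members apart from other genes. L1236 was apart in 3 of them. Its KDM4A mean was 8.17, against 7.29 to 7.48 in the other Hodgkin lines. Its HDAC3 mean was 11.31, against 9.51 to 9.93. Its ARID1A mean was 10.64, below 10.96 to 11.03, although ARID1A did not pass the F test among Hodgkin lines. KM-H2 had HDAC9 at 8.51, against 4.72 to 5.35. L540, averaged with L540Cy, had SMARCA2 at 4.82, against 10.53 to 12.08.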

How the results depend on the processing

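TET1 stayed lower in Hodgkin lines and past the threshold in each alternative that tested it (leave-one-out adjusted p of 0.00992 to 0.0447 with limma). The filter on genes with a mean above 6 log2 removes it, which leaves 0 of 36 members called, against 2.99% of the 11321 genes. It likewise leaves 0 in B cell derived Hodgkin lines against the non-Hodgkin lines (against 1.94%). There the mean of all probe sets also gave 0 members (against 0.765% of all genes). With L540 and L540Cy as 2 lines, 233 genes were higher and 190 lower. With the line as a random block these were 599 and 473, with 3 members lower (TET1, HDAC9 and DNMT3B). With a replicate block added they were 533 and 434, with 2 members lower (TET1, and SMARCA4 at adjusted p = 0.0306).

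Leave-one-out ranges were 68 to 158 genes higher and 69 to 122 lower for the Hodgkin comparison, with 1 to 2 members lower (HDAC9 added without KM-H2). For B cell derived Hodgkin lines they were 67 to 140 higher, 47 to 84 lower and 0 to 3 members lower. For T against B cell derived Hodgkin lines they were 14 to 115 higher, 4 to 42 lower and 0 to 1 members lower (SMARCA2 without HDLM2, where the T cell derived arm is L540 alone), and the filter at 6 log2 gave 14 higher. Among the line contrasts, the shares of genes higher and lower ranged over 6.26% to 13.4% and 5.35% to 13.6% for L428, 8.31% to 16.0% and 5.01% to 12.5% for L1236, and 9.35% to 16.6% and 6.61% to 14.7% for KM-H2. They ranged over 9.14% to 15.4% and 8.19% to 14.9% for HDLM2, 8.74% to 15.6% and 10% to 18.4% for Namalwa, and 7.8% to 12.3% and 7.76% to 12.1% for Reh. The lowest share of each of these lines came without 1 of its own arrays. For L540 the shares were 10.4% to 13.2% higher and 12.4% to 16.1% lower. For SU-DHL-4 they were 6.68% to 9.76% and 8.41% to 11.2%. Members higher and lower ranged over 2 to 5 and 5 to 10 for L428, 3 to 7 and 6 to 11 for L1236, 6 to 13 and 3 to 8 for KM-H2, 4 to 6 and 7 to 11 for HDLM2, and 1 to 2 and 12 to 16 for L540. They ranged over 6 to 10 and 2 to 7 for Namalwa, 4 to 7 and 5 to 8 for SU-DHL-4, and 11 to 15 and 0 to 1 for Reh.

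Differences of replicate 2 minus replicate 1 correlated at 0.14 to 0.36 in the 10 pairs among L428, L1236, KM-H2, HDLM2 and Reh. In the 5 pairs with Namalwa they correlated at -0.07 to 0.06, so not every pair exceeded the 0.1 set for pairing. Same-numbered arrays thus shared part of their deviation in the duplicated lines other than Namalwa. The main fits do not model this, and its cause was not tested. In the 12 numbered arrays with a replicate block, 6 members were higher in L428 (against 12.4% of all genes) and 3 lower in Reh (13.4%), and without the block also 3 in Reh (12.3%). L540 had 2 members higher with the mean of all probe sets (against 2247 of 19735 genes), the filter at 6 log2 (2108 of 11321) or centred arrays (2574 of 19735). SU-DHL-4 had 4 lower with the mean of all probe sets (against 1825 of 19735 genes) and 8 higher with centred arrays (2154 of 19735). The SWI/SNF median was -0.042 log2 with L540 and L540Cy as 2 lines and 0.10 log2 with averaged probe sets, and 0.18 to 0.45 log2 in leave-one-out. The DNA methylation median ranged over -1.62 to -0.89 log2.

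Reversed signs were found for differences that did not pass the test. EZH1 was 0.17 log2 with the most variable probe set (-0.32 to 0.23 in leave-one-out). EZH2 was 0.089 log2 without L540Cy (-0.23 to 0.30). SUZ12 was 0.00047 log2 when its probe sets were averaged and 0.10 log2 with the most variable one (-0.22 to 0.13). TET3 was -0.0072 log2 without L540Cy, -0.039 log2 after quantile normalization and -0.042 log2 after centring (-0.28 to 0.37). SMARCA2 was -0.042 log2 with L540 and L540Cy as 2 lines, and TET2 ranged over -0.17 to 2.00 log2. The causes were not tested. The number of lines limits the class comparison, and SU-DHL-4 rests on 1 array. For genes near the background the size of a difference may be understated, which was not tested.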
